A study of Homo sapiens with 4 samples.

Results

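The ATP-binding cassette (ABC) transporter genes were taken as every symbol in the count table made of ABC, a subfamily letter from A to G and a number, which gave 46 of 28278 genes. Expression was measured by RNA-seq in cells labelled HepG2, a human hepatocellular carcinoma line, carrying lentiviral Cas9 with a control sgRNA (control, 2 libraries) or with an sgRNA against *USP22* (sgUSP22, 2 libraries). Both groups had been exposed to Sorafenib for 24 h, so that no untreated cells enter the comparison. By the study's methods, both groups were stable populations selected after infection, and nothing in the labels ties a replicate number to a separate culture, so the p-values measure the spread between these libraries, which may be technical.

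ABC proteins bind and hydrolyse ATP to move a cargo across a membrane. In the liver they export bile salts, bilirubin conjugates, phospholipid and sterols into bile, load cholesterol onto lipoproteins, carry fatty acyl-CoA into peroxisomes and serve mitochondrial haem and iron-sulphur metabolism. A subset, including P-glycoprotein (ABCB1), the multidrug resistance proteins of subfamily C and ABCG2, pumps drugs and their conjugates out of cells and is known for its part in drug resistance. Subfamilies E and F have the ATP-binding domains but no membrane part, and act on ribosomes and translation.

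Library totals lay between 62030307 and 64728272 counts. Levels were put on the CPM scale, which divides counts by library size, here after TMM scaling. A gene listed at 0 could have had up to 3 counts, which is 0.0457 to 0.0492 CPM. That floor reflects counting error alone. *USP22* counts were 16450 and 16537 in control but 20279 and 20368 under the sgUSP22 label (log2 fold change 0.22, SE 0.034, edgeR quasi-likelihood adjusted p = 0.000394), higher and not lower, so the groups are named here by their label alone. The paper reports checking the knockout by Western blot, a measure of protein and not of RNA. It also reports RT-qPCR that matched its RNA-seq direction for selected genes. Whether the labels of these libraries were exchanged was not tested here, and an exchange would reverse every direction given below. The cell line label was checked against hepatocyte markers, which were absent or nearly so, and these libraries may therefore not be HepG2. Of 16 hepatocyte genes, 8 were listed at 0 in all 4 libraries, *ALB*, *APOA1*, *APOB* and *TTR* among them, 1 passed the filter on low counts with no call, and their summed level was 0.443 to 0.497 CPM in control libraries and 0.480 to 0.913 CPM in those labelled sgUSP22. Of 10 genes that every cell uses, 0 were at 0 in any library. Of 8 mesenchymal markers, 7 were tested, with 2 called higher and 1 lower, beside 8.88% and 7.25% of all tested genes. *DCN* (9.81 ± 0.606 to 78.2 ± 1.13 CPM, SD, n = 2, 7.97-fold) and *LUM* (65.1 ± 7.24 to 184.7 ± 3.22 CPM, SD, n = 2, 2.84-fold), proteoglycans of connective tissue, were called higher, and the growth factor receptor *PDGFRB* (log2 fold change -0.98) was called lower. *VIM* had 1073 ± 7.49 CPM and *COL3A1* 503 ± 6.22 CPM in control cells (SD, n = 2). *THY1* was low, at 0.267 ± 0.0989 CPM in control cells and 0.368 ± 0.147 CPM in the others (SD, n = 2). The untested *COL1A2* had 0 counts in both control libraries and 7 and 0 counts in those labelled sgUSP22. The markers' summed level was 1708 to 1724 CPM in control libraries and 1708 to 1730 CPM in those labelled sgUSP22. The part of these levels in the results below was not tested.

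Of the 46 ABC genes, 7 were listed at 0 in all 4 libraries, another 7 had counts but did not pass the filter, and 32 were tested. The highest count among the 14 untested genes was 24. Several of the best-known hepatic members were in that group. *ABCB11*, the bile salt export pump, and *ABCG5* and *ABCG8*, which together secrete sterols into bile, were listed at 0 throughout. *ABCB4*, which flips phosphatidylcholine into bile, had 5 and 0 counts in control libraries and 0 and 7 counts in libraries labelled sgUSP22. *ABCA1*, which passes cholesterol to apolipoprotein A-I, was listed at 0 in 3 libraries and had 7 counts in replicate 2 labelled sgUSP22. The other genes at 0 throughout were *ABCA9*, *ABCD2*, *ABCC12* and *ABCC13*, and the other untested genes were *ABCA6*, *ABCA13*, *ABCB5*, *ABCC9* and *ABCC11*. At this depth these genes allow no comparison between the groups.

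A mean of at least 1 CPM over the 4 libraries was reached by 26 genes and a mean of at least 10 CPM by 22. Levels were compared between genes only per length, as RPKM (CPM per kilobase of all annotated exons of the gene). On that scale the highest levels in control cells were those of the genes without a membrane part. *ABCF1*, a translation initiation factor partner, had 46.2 ± 1.70 RPKM (SD, n = 2), *ABCE1*, which recycles ribosomes, had 29.7 ± 0.755 RPKM (SD, n = 2), and *ABCF2* had 24.5 ± 1.70 RPKM (SD, n = 2). The most abundant transporter was *ABCC1*, at 16.6 ± 0.350 RPKM (SD, n = 2). *ABCC3* at 11.8 ± 0.153 RPKM (SD, n = 2), *ABCC2* at 11.7 ± 0.0919 RPKM (SD, n = 2) and *ABCF3* at 11.4 ± 0.418 RPKM (SD, n = 2) lay below it and did not differ from each other beyond their spread. *ABCB1* and *ABCG2* were far lower, at 0.438 ± 0.00530 and 0.827 ± 0.0930 RPKM (SD, n = 2). With the length of the longest annotated transcript in place of all exons, the first 4 places kept their order, while *ABCF3* came above *ABCC3*.

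**Figure D1:**
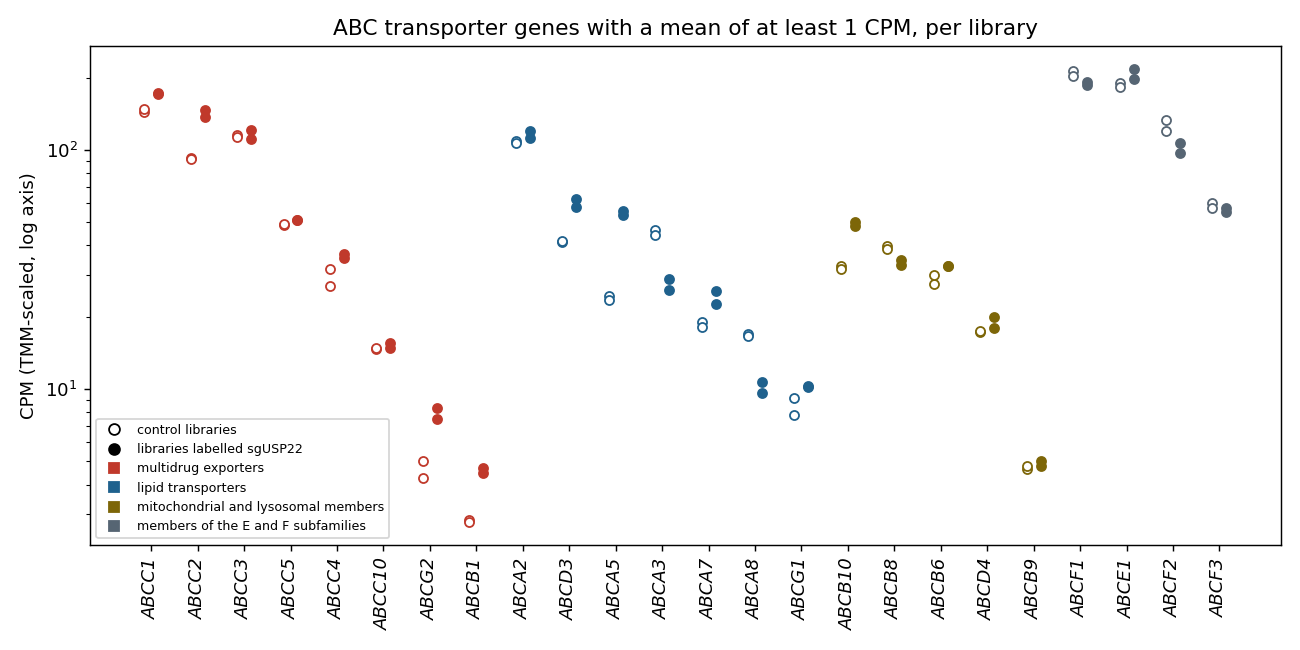
Level of 24 of the 26 ABC genes with a mean of at least 1 CPM, in CPM on a log axis, with each point a library (open, control, and filled, labelled sgUSP22) and colours for the classes of genes. Points of different genes are not scaled to gene length. The filled points lie above both open points for *ABCB1*, *ABCG2*, *ABCC2*, *ABCA5* and *ABCB10*, and below them for *ABCA3* and *ABCA8*.

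The comparison asked how ABC genes differed between the libraries labelled sgUSP22 and control under Sorafenib. *ABCA5*, *ABCG2*, *ABCB1*, *ABCC2*, *ABCB10*, *ABCA4* and *ABCC8* were higher in the libraries labelled sgUSP22, and *ABCA3* and *ABCA8* were lower, by edgeR's quasi-likelihood test. A call needed a Benjamini-Hochberg adjusted p under 0.05 and a difference of 1.5-fold or more. The 7 higher genes were 21.9% of the 32 tested, where 8.88% of all 15150 tested genes were called higher, and the 2 lower genes were 6.25%, where 7.25% of all tested genes were called lower. In bulk RNA, a change in the share of cells and a change in RNA per cell cannot be told apart. Of the 32 genes, *ABCA4*, *ABCC8*, *ABCG4* and *ABCA12* did not reach the minimum in both libraries of each group, and a gene that passes only through its high group had to differ, so *ABCA4* and *ABCC8* lend the count no support. Over the 26 genes with a mean of at least 1 CPM, 5 were called higher (19.2%) and 2 lower (7.69%). The shares of 8.88% and 7.25% are over tested genes of any level, and the share among all genes of that level was not counted. Without the fold threshold, 13 genes were higher (26.8% of all tested genes were) and 5 lower (25.8%). Both libraries labelled sgUSP22 lay above both control libraries in 19 of the 32 genes (38.3% of all tested genes) and below them in 7 (37.6%). The median log2 fold change of the 32 genes was 0.17, against 0.00091 over all tested genes.

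RefSeq's promoter table for GRCh38.p14 held 35 of the 46 ABC genes. Of the 9 called genes, 4 had a single start there, and the 250 bases before it are printed to show how differently built the starts of genes called in the same direction were. Capitals mark matches, on either strand, to any of 6 letter strings, namely the GC box GGGCGG, the CCAAT box, the TATA box TATAAA, the E-box CACGTG, the antioxidant response element core TGACNNNGC and the nuclear receptor core site AGGTCA.

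The stretches are given 5′ to 3′ on the strand of the gene, the first 3 for genes called higher and the last for the gene called lower.
*ABCC2*, chr10:99782390-99782639, plus strand: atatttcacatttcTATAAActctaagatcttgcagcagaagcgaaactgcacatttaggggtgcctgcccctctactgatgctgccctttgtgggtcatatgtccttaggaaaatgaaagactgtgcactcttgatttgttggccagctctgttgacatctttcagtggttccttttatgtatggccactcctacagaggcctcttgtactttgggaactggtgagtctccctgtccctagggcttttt
*ABCA5*, chr17:69327134-69327383, minus strand: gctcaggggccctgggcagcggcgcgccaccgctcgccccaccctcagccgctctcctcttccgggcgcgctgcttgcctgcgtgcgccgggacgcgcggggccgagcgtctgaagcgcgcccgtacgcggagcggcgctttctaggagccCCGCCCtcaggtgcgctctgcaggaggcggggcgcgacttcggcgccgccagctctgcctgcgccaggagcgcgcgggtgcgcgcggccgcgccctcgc
*ABCB10*, chr1:229558708-229558957, minus strand: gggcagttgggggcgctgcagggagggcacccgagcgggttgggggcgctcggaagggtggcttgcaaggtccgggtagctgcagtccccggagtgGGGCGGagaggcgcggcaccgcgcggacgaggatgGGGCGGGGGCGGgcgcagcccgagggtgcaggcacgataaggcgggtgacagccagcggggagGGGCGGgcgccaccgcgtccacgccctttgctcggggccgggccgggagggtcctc
*ABCA3*, chr16:2340729-2340978, minus strand: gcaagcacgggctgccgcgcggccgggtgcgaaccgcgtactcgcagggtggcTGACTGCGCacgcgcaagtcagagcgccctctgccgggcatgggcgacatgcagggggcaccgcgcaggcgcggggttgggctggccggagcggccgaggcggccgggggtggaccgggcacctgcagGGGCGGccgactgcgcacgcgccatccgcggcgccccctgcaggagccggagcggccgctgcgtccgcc

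The stretch before *ABCC2* was 45.6% GC with 1 CG dinucleotide and held no GC box. Its TATAAA string ended 231 bases before the start. Those before *ABCA5*, *ABCB10* and *ABCA3* were 79.2%, 77.2% and 79.2% GC with 42, 29 and 38 CG dinucleotides, where the median over all 35116 promoters was 58.0% GC. *ABCB10* held 4 matches to the GC box, and *ABCA5* and *ABCA3* held 1 each. Of all promoters, 42.6% held a GC box in the same window, 32.0% a CCAAT box, 10.7% the TATA box, 10.9% the antioxidant response element core, 12.1% the nuclear receptor core site and 6.345% the E-box. *ABCA3* held the antioxidant response element core, and none of the 4 stretches held the CCAAT box, the E-box or the nuclear receptor core site. A match is a string of letters and not a measured site.

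The 10 multidrug exporters had 8 tested genes, of which 3 (*ABCC2*, *ABCG2* and *ABCB1*) were called higher, beside 8.88% of all tested genes, and 0 lower by edgeR (also 0 lower at an unadjusted p below 0.05, and 0 lower with DESeq2). All 3 calls were lost after correction for GC content and length, where *ABCC2* had a log2 fold change of 0.49, *ABCG2* of 0.56 and *ABCB1* of 0.51, and in a test against 1.5-fold. The fitted difference was above 0 for all 8 of these genes, beside 50.1% of all tested genes. For *ABCC3*, *ABCC5* and *ABCC10* it did not pass the test. That of *ABCC5* was -0.016 after correction for GC content and length, and that of *ABCC3* was -0.032 without sgUSP22 replicate 2. The median log2 fold change of the 8 genes was 0.27. Summed over the class, the level was 453 and 450 CPM in the control libraries and 537 and 552 CPM in the libraries labelled sgUSP22.

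*ABCC2* encodes the export pump for glucuronide and glutathione conjugates at the canalicular membrane of hepatocytes and lies on the plus strand of chromosome 10 of hg38 from 99782640 to 99852594. Of the 4 starts printed above, its own was the one without GC-rich sequence. Control libraries gave 5641 and 5708 counts, and those labelled sgUSP22 gave 9029 and 9468. Both libraries labelled sgUSP22 were above both controls, with 92.0 ± 0.720 CPM (SD, n = 2) in control cells and 142 ± 6.55 CPM (SD, n = 2) in the others. Its log2 fold change was 0.63 (SE 0.043, edgeR quasi-likelihood adjusted p = 2.26e-06), or 1.54-fold, and without sgUSP22 replicate 2 it was 0.58, under the fold threshold. With this difference the share of *ABCC2* in the summed level of the multidrug exporters went from 20.4% to 26.1%.

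*ABCG2*, an exporter of many kinase inhibitors and of urate that works as a dimer, lies on the minus strand of chromosome 4 from 88090150 to 88231628. Control libraries gave 260 and 312 counts, and those labelled sgUSP22 gave 548 and 485. The groups did not overlap, and the log2 fold change was 0.77 (SE 0.14, edgeR quasi-likelihood adjusted p = 0.00112). *ABCB1*, the gene of P-glycoprotein, the best-known exporter of hydrophobic drugs, lies on the minus strand of chromosome 7 from 87503017 to 87713323. Control libraries gave 173 and 174 counts, and those labelled sgUSP22 gave 293 and 304. The replicates of each group lay close together, and the log2 fold change was 0.70 (SE 0.16, edgeR quasi-likelihood adjusted p = 0.00424). In absolute terms both remained low, with 4.58 ± 0.177 CPM (SD, n = 2) for *ABCB1* and 7.93 ± 0.584 CPM (SD, n = 2) for *ABCG2* in the libraries labelled sgUSP22.

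The other 5 tested multidrug exporters did not reach 1.5-fold. *ABCC1*, which exports glutathione and its conjugates, had 8726 and 9198 counts in control libraries and 11354 and 10999 counts in those labelled sgUSP22. Its log2 fold change of 0.24 (SE 0.037, edgeR quasi-likelihood adjusted p = 0.000415) passed the adjusted p but was 1.18-fold. *ABCC4*, which exports cyclic nucleotides and prostaglandins, had 1931 and 1676 counts against 2401 and 2272, with a log2 fold change of 0.29 (SE 0.082, edgeR quasi-likelihood adjusted p = 0.0130). For *ABCC4* the value was 0.13 after correction for GC content and length and 0.18 without control replicate 2, and it did not pass in either fit, nor without sgUSP22 replicate 1 (0.25) or without the filter (0.29). Both lay below the fold threshold, with no overlap between the groups. *ABCC3*, the conjugate exporter of the basolateral membrane, had 6999 and 7031 counts against 7310 and 7768, a log2 fold change of 0.026 (SE 0.046), and its groups overlapped after scaling. *ABCC5*, an exporter of cyclic nucleotides, had 2961 and 3055 counts against 3340 and 3296 and a log2 fold change of 0.063 (SE 0.049). *ABCC10* had 899 and 923 counts against 973 and 1010 and a log2 fold change of 0.044 (SE 0.089). The difference in the last 3 genes did not pass the test, and all 3 SEs were small against the fold threshold of 0.585 on the log2 scale. Of the untested exporters, *ABCB5* had between 0 and 12 counts and *ABCC11* between 5 and 17 counts in a library.

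The 20 lipid transporters had 12 tested genes, and their median log2 fold change was 0.26. Of the 12, 2 (*ABCA5* and *ABCA4*) were called higher and 2 (*ABCA3* and *ABCA8*) lower. This was 16.7% each, beside 8.88% and 7.25% of all tested genes. *ABCA4* lends the count no support, as given above. With a mean of at least 1 CPM, 8 genes remained, with 1 higher (12.5%) and 2 lower (25%). The share among all genes of that level was not counted. The summed level of the class was 312 and 310 CPM in the control libraries and 340 and 359 CPM in those labelled sgUSP22, and *ABCA2* made up 34.5% of it in control cells and 33.2% in the others.

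*ABCA5*, a lysosomal member linked to cholesterol handling, had the largest difference among the 26 genes with a mean of at least 1 CPM. It lies on the minus strand of chromosome 17 from 69244311 to 69327244. Control libraries gave 1494 and 1468 counts, and those labelled sgUSP22 gave 3502 and 3568, or 24.0 ± 0.686 and 54.3 ± 1.40 CPM (SD, n = 2). The gap between the groups was many times the spread within them, with a log2 fold change of 1.18 (SE 0.058, edgeR quasi-likelihood adjusted p = 3.06e-07), or 2.26-fold. *ABCA8*, which promotes cholesterol efflux and lies in the same cluster of subfamily A genes, on the minus strand from 68867289 to 68955392, went the other way. Control libraries gave 1037 and 1041 counts, and those labelled sgUSP22 gave 631 and 692, a log2 fold change of -0.73 (SE 0.098, edgeR quasi-likelihood adjusted p = 0.00017). The 3 genes between them were at or near 0, with *ABCA9* at 0 throughout, *ABCA6* at 4 counts in a single library and *ABCA10* at 24 and 38 counts against 15 and 62. *ABCA10* shares 536 bases of its annotated span with *ABCA5* on the same strand, so some of its few reads may belong to either gene.

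*ABCA3*, which loads phospholipid into the lamellar bodies of the lung, lies on the minus strand of chromosome 16 from 2275881 to 2340746. Control libraries gave 2827 and 2751 counts, and those labelled sgUSP22 gave 1888 and 1674. Both libraries labelled sgUSP22 were below both controls, with a log2 fold change of -0.73 (SE 0.069, edgeR quasi-likelihood adjusted p = 1.64e-05). *ABCA4*, the retinoid flippase of photoreceptors, had 7 and 15 counts in control libraries and 46 and 34 counts in those labelled sgUSP22. Its log2 fold change of 1.77 (SE 0.56, edgeR quasi-likelihood adjusted p = 0.0232) rested on few counts. It was not called with DESeq2 (adjusted p = 0.0781), nor without control replicate 1 (log2 fold change 1.34), sgUSP22 replicate 1 (1.54) or sgUSP22 replicate 2 (1.96).

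*ABCD3*, which carries branched-chain and bile acid precursors into peroxisomes, had 2504 and 2587 counts in control libraries and 3772 and 4000 counts in those labelled sgUSP22. Its log2 fold change of 0.53 (SE 0.055, edgeR quasi-likelihood adjusted p = 3.1e-05) lay just under the fold threshold, and after correction for GC content and length it was 0.26. *ABCA7*, a phospholipid transporter, had 1163 and 1135 counts against 1489 and 1661 and a log2 fold change of 0.38 (SE 0.089, edgeR quasi-likelihood adjusted p = 0.00517), under the fold threshold. *ABCA2*, a lysosomal lipid transporter and the most abundant of the class by CPM, had 6620 and 6643 counts against 7375 and 7717 and a log2 fold change of 0.11 (SE 0.043). *ABCG1*, which moves cholesterol to high-density lipoprotein, had 476 and 573 counts against 669 and 668 and a log2 fold change of 0.27 (SE 0.12). The differences in *ABCA2* and *ABCG1* did not pass the test, with edgeR quasi-likelihood adjusted p-values of 0.0597 and 0.0789, although *ABCA2* passed after correction for GC content and length (0.17) and *ABCG1* without control replicate 2 (0.39), both under 1.5-fold. The low-count *ABCG4* had 24 and 38 counts against 14 and 0, and *ABCA12* had 0 and 16 counts against 19 and 9. Neither passed the test, although *ABCG4* was called lower with a replicate block (log2 fold change -2.52). *ABCG4* was also called lower without sgUSP22 replicate 1, and *ABCA12* higher without control replicate 2. In these fits the group's remaining library had 0 counts, so no fitted value is given, because the prior count sets it.

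Among the 6 mitochondrial and lysosomal members, all tested, *ABCB10* alone was called. It encodes an inner mitochondrial membrane protein needed for haem synthesis and lies on the minus strand of chromosome 1 from 229516582 to 229558707. Control libraries gave 1988 and 1982 counts, and those labelled sgUSP22 gave 3267 and 3096. The groups were far apart relative to their spread, with a log2 fold change of 0.60 (SE 0.055, edgeR quasi-likelihood adjusted p = 1.39e-05). This is 1.52-fold, at the edge of the fold threshold, and the value was 0.58 without control replicate 2 and 0.56 without sgUSP22 replicate 1, under it. *ABCB8*, another inner mitochondrial membrane protein, had 39.1 ± 0.621 CPM (SD, n = 2) in control cells and 33.7 ± 1.05 CPM (SD, n = 2) in the others, and passed the adjusted p without reaching 1.5-fold. Without sgUSP22 replicate 2 its log2 fold change was -0.18 and did not pass. *ABCB6*, *ABCB9* and *ABCD4*, which handles vitamin B12 in lysosomes, did not pass.

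*ABCC8*, the sulphonylurea receptor subunit of potassium channels, was listed at 0 in both control libraries and had 20 and 35 counts in those labelled sgUSP22. Against the floor of 3 counts per library this was at least 8.70-fold higher. No fitted value is given, because the prior count sets it. *ABCC6*, whose mutation causes ectopic mineralisation, had 57 and 50 counts against 11 and 43, and did not pass the test (edgeR quasi-likelihood adjusted p = 0.144). Reads could be split between it and the near-identical copies *ABCC6P1* and *ABCC6P2*, and its level is therefore uncertain. Without sgUSP22 replicate 2 it was called lower (log2 fold change -2.36). Of the 4 genes of subfamilies E and F, 0 were called by edgeR or by DESeq2, with 1 higher and 2 lower at an unadjusted p below 0.05 in each. *ABCE1* had a log2 fold change of 0.16 (SE 0.048, edgeR quasi-likelihood adjusted p = 0.0172), which was 0.091 without sgUSP22 replicate 2. After correction for GC content and length it was -0.125 (edgeR quasi-likelihood adjusted p = 0.0302). The gene thus passed the adjusted p in opposite directions, and its direction is uncertain. *ABCF2* had 7325 and 8267 counts against 6335 and 6860 and a log2 fold change of -0.32 (SE 0.059, edgeR quasi-likelihood adjusted p = 0.00126).

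**Figure D2:**
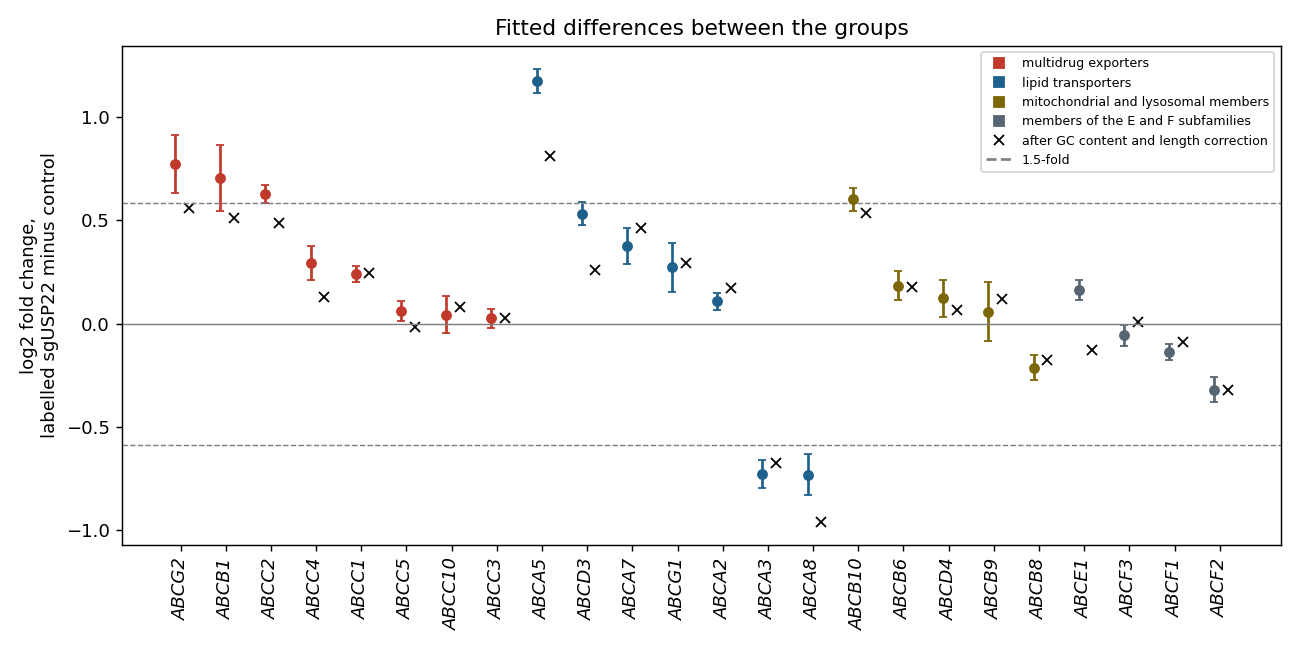
Log2 fold change between the libraries labelled sgUSP22 and control for 24 of the 26 ABC genes with a mean of at least 1 CPM, with bars of 1 SE, coloured by class, and crosses for the value after correction for GC content and length. Dashed lines mark 1.5-fold. The points of *ABCG2*, *ABCB1*, *ABCC2*, *ABCA5* and *ABCB10* lie above the upper line, and of these the cross of *ABCA5* alone does.

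GC content moved with these differences. The 5 genes called higher with a mean of at least 1 CPM had longest transcripts of 33.2% to 45.4% GC, with a median of 40.8%, against a median of 53.7% in the other 21 genes of that level. Across the 26 genes, GC content and log2 fold change had a Spearman rho of -0.53 and a Pearson r of -0.49, given as a description, since the genes share the same 4 libraries. Exon length had a rho of 0.011. When the trends over GC content and exon length were removed from each library, *ABCB10* had a log2 fold change of 0.54, and it and the 3 exporters given above lost their calls. All 4 stayed under the edgeR threshold of 0.05 for the adjusted p but lay below 1.5-fold. In that setting 3 of the 32 ABC genes were called higher, or 9.38%, beside 7.28% of all tested genes. They were *ABCA5*, *ABCA4* and *ABCC8*, of which *ABCA4* and *ABCC8* lend the count no support, as given above. *ABCA5* had 0.81, *ABCA3* -0.67 and *ABCA8* -0.96, and these 3 kept their calls.

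**Figure D3:**
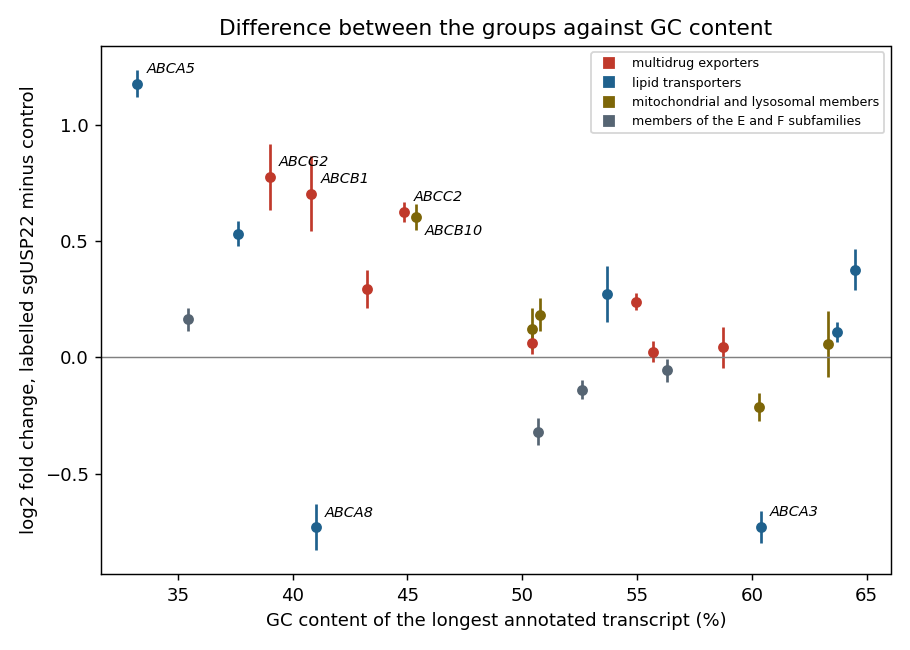
Log2 fold change with bars of 1 SE against GC content of the longest annotated transcript in percent, for 24 of the 26 ABC genes with a mean of at least 1 CPM, coloured by class, with names at the called genes. The 5 genes called higher lie at or below 45.4% GC, and *ABCA8*, called lower, lies at 41.0%.

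The members were then set beside the genes around them, as the median log2 fold change of tested genes of at least 1 log2 CPM that start within 5 Mb. *ABCC2* stood against its surroundings. Its 83 neighbours had a median of -0.50, with 36 called lower and 1 higher, while *ABCC2* had 0.63. The 34 neighbours of *ABCA5* had a median of 0.062 and the 35 neighbours of *ABCA8* a median of 0.078. Both medians lay close to 0, while the pair itself went in opposite directions. *ABCG2* and *ABCB1* lay in regions with medians of 0.35 (24 genes) and 0.23 (23 genes), in the same direction as the genes themselves. *ABCD3* had 34 neighbours with a median of 0.33. *ABCA3* had 120 neighbours with a median of -0.19, 10 of them called lower and 7 higher.

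**Figure D4:**
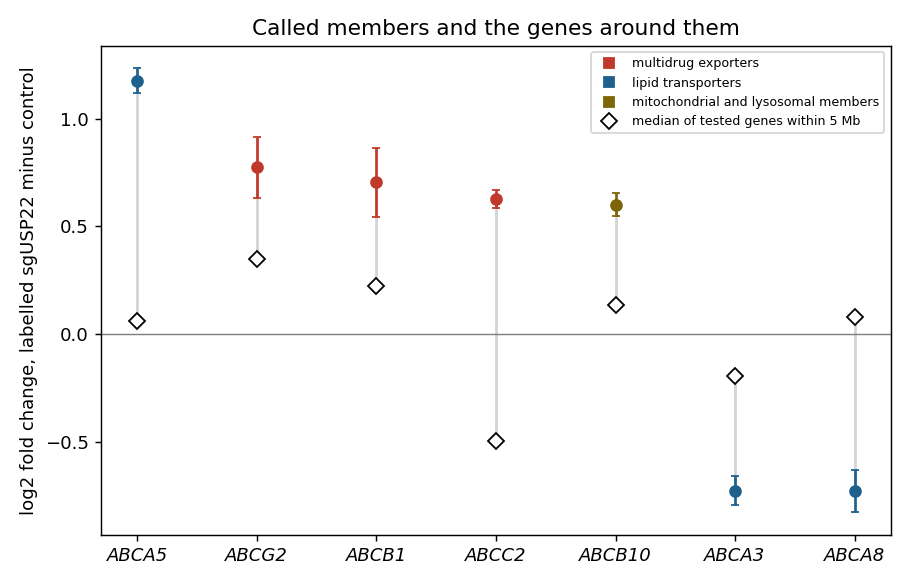
Log2 fold change of the 7 called ABC genes with a mean of at least 1 CPM (filled, bars of 1 SE, coloured by class) and the median over tested genes that start within 5 Mb (open diamonds). *ABCC2* at 0.63 lies above a neighbour median of -0.50, the widest gap with opposite signs.

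Genes that work with the ABC family were counted by list. Of 15 receptors and factors that control ABC genes, 11 were tested, 2 were called higher and 0 lower. Of all tested genes, 8.88% were called higher and 7.25% lower. Without the fold threshold, 5 of the list were higher and 3 lower by edgeR at an adjusted p below 0.05. Of all tested genes, 26.8% and 25.8% were. The called genes were *NR1H2* and *SREBF2*. *NR1H2*, the sterol-sensing receptor LXR beta, went from 18.1 ± 0.132 to 39.5 ± 1.46 CPM (SD, n = 2), a log2 fold change of 1.13 (SE 0.069, edgeR quasi-likelihood adjusted p = 1.09e-06). *SREBF2*, the master factor of cholesterol synthesis, had a log2 fold change of 0.80 (SE 0.037, edgeR quasi-likelihood adjusted p = 2.16e-07). The xenobiotic receptor *NR1I2* and the bile acid receptor *NR1H4* were listed at 0 in all 4 libraries. Of 7 LXR targets outside the family, 6 were tested, 0 were called higher by edgeR and 1 lower, *MYLIP*, a ubiquitin ligase for the LDL receptor, with a log2 fold change of -0.80 (SE 0.098, edgeR quasi-likelihood adjusted p = 8.98e-05). Within the ABC family, the LXR targets *ABCA1*, *ABCG5* and *ABCG8* were at or near 0 and *ABCG1* did not pass the test.

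Of 10 hepatic uptake carriers, 5 were listed at 0 throughout and 5 were tested. By edgeR, 1 was called higher and 1 lower, beside 8.88% and 7.25% of all tested genes. *SLCO1B3*, an uptake carrier for organic anions, was called higher, from 27.1 ± 1.20 to 52.0 ± 3.50 CPM (SD, n = 2), with a log2 fold change of 0.94 (SE 0.067, edgeR quasi-likelihood adjusted p = 2.61e-06). *SLC22A3*, a carrier of organic cations, was called lower, with a log2 fold change of -0.66 (SE 0.17, edgeR quasi-likelihood adjusted p = 0.0077). Of the 3 ABC proteins named by other symbols, *CFTR* had 4 counts in a single library, and *TAP1* and *TAP2*, the peptide transporter of antigen presentation, had log2 fold changes of 0.44 (SE 0.040) and 0.011, neither called. Of 8 proteins that place ABC transporters in membranes, all tested, 0 were called by edgeR, with 3 higher and 2 lower at an adjusted p below 0.05 without the fold threshold. Of all tested genes, 26.8% were higher and 25.8% lower by that measure.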

How the data were processed

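PolyA RNA of 4 libraries was sequenced. Strand, read length and gene annotation are not given in the sources used here. Per the labels and the submitters' processing notes, the authors aligned reads to hg38 with HISAT2 (version 2.2.1), counted genes with StringTie (version 2.2.1) and tested them with DESeq2 (version 1.34.0), and deposited a whole-number count per gene and library, not normalized. All 4 value columns were matched to a sample, leaving 0 without one.

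Counts were analysed as deposited in R 4.3.3 with edgeR 4.0.16. Genes were filtered with filterByExpr (minimum count 10), scaled by TMM, fitted with the quasi-likelihood model on the group alone and tested, with Benjamini-Hochberg adjustment over all 15150 tested genes. CPM used the TMM-scaled library sizes, and RPKM, coordinates, GC content and lengths came from GENCODE v44 on hg38, to which 25763 of the 28278 symbols matched. The GC content and length correction removed lowess trends (span 0.3) from each library, for the 14384 tested genes with both. The fit was tested on simulated data first. DESeq2 1.42.0, other scalings, filters and thresholds, a GC content and length correction, a replicate block and leaving out each library were alternatives.

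The members, classes and companion lists were chosen with earlier results of these data known. By rule, library values were given for every tested multidrug exporter and lipid transporter and for called members of other classes, the rest by range and number. From companion lists, called genes were named, up to the 4 with the largest differences. *TAP1*, *TAP2*, *CFTR*, *NR1I2*, *NR1H4*, *THY1* and *COL1A2* were named after their values were seen. Values of 2 single genes are not reported here, while counts and sums over a class include them. Same-numbered libraries deviated with a correlation of 0.042, and the labels tie the numbers to nothing shared, so they were not treated as pairs.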

Additional observations from a re-analysis of the deposited data

How the results depend on the processing

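The counts were 7 ABC genes higher and 2 lower, with 3 multidrug exporters and 4 lipid transporters called. This was 21.9% and 6.25% of the tested ABC genes, beside 8.88% and 7.25% of all tested genes. Without the fold threshold they were 13 higher (40.6%), 5 lower (15.6%) and 5 exporters, beside 26.8% higher and 25.8% lower of all tested genes. Testing against 1.5-fold with edgeR's glmTreat left 2 higher (*ABCA5* and *ABCC8*), 0 lower, 0 exporters and 1 lipid transporter (at an unadjusted p under 0.05, 4 higher, 2 lower and 1 exporter). The 2 were 6.25% of the 32 tested ABC genes, and *ABCC8* lends the count no support. Of all tested genes, 3.82% were higher and 2.83% lower in that test. Correction for GC content and length left 3 higher (*ABCA5*, *ABCA4* and *ABCC8*) and 0 exporters by edgeR, with 9.38% of ABC genes and 7.28% of all tested genes higher. Of these, *ABCA4* and *ABCC8* lend the count no support. Leaving out 1 library in turn left 1 library in a group, so counts of calls are not given for these fits. *ABCA4*, *ABCB10* and *ABCC2* lost calls in at least 1 of them. *ABCA12*, *ABCG4*, *ABCC6* and the otherwise untested *ABCC9* (without control replicate 1) gained calls. DESeq2 gave 6 higher and 2 lower of 39 ABC genes, or 15.4% and 5.13%, beside 6.34% and 4.95% of all genes in that fit. Directions turned with the GC content and length correction for *ABCA10* (log2 fold change -0.058), *ABCC5* (-0.016), *ABCF3* (0.0097) and *ABCE1* (-0.125). Of these, *ABCE1* passed the adjusted p in both fits. Without control replicate 1 they turned for *ABCA10* (-0.038) and *ABCA12* (-0.26), and without sgUSP22 replicate 2 for *ABCC3* (-0.032) and *ABCA10* (-1.13). Over the settings that left out 1 library, *ABCC3* ranged from -0.032 to 0.069, *ABCA10* from -1.13 to 0.92 and *ABCA12* from -0.26 to 6.79. Apart from what these settings remove by construction, the cause was not tested. Of 354 comparisons of a reported gene with an alternative, 310 kept their direction and their side of the threshold on the adjusted p, 13 newly passed it, 23 no longer did and 8 turned. For the test against 1.5-fold, the starting point was the call of the main fit and not its adjusted p. Of the 310, 7 lost their call by falling under 1.5-fold.

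With the replicate number as a block there were 7 higher (21.9%), 3 lower (9.38%), 3 exporters and 5 lipid transporters, the added call being *ABCG4*. Of all tested genes, 8.85% were higher and 7.26% lower in that fit. The correlation of 0.042 between same-numbered deviations showed no sign of pairing. It rests on 2 libraries a group and cannot exclude something shared by libraries of the same number. With 2 libraries a group, small differences were not detectable in genes of few counts.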
